A study of Mus musculus with 9 samples.

Results

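The genes described here are 37 genes of glucose breakdown and of the cell's response to low oxygen, chosen by name for their roles in both pathways, with earlier results of these data known. They comprise 2 glucose transporters, 17 glycolytic enzymes, 2 lactate transporters, 3 regulators of glycolytic flux, the oxygen-sensitive transcription factor subunit Hif1a, and 12 further genes that HIF1 is known to activate outside glycolysis. Of these 37 genes, 35 reached a level of 1 TPM (a transcript level scaled by transcript length and library total) in at least 3 libraries and were tested, among 11260 tested genes of 55906 listed in all. Ldhb, the heart-type lactate dehydrogenase subunit, was listed at 0 in all 9 libraries. Adm, which encodes the vasodilator peptide adrenomedullin, was listed at 0 in 8 libraries and at 0.03 TPM in LPS+Pilo replicate 3. Neither gene was tested, and every count below is over the genes that were.

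All 9 libraries came from BV2 cells, an immortalized mouse microglial line, labelled wildtype. They form 3 groups of 3: cells given lipopolysaccharide together with Pilo (LPS+Pilo), cells given lipopolysaccharide alone (LPS), and cells whose treatment label is a slash, with no agent named (Control). The series asks how Pilo modulates the inflammatory response of these cells, and its title names the M3 muscarinic receptor and experimental autoimmune encephalomyelitis. The sources used here give no dose or exposure time and do not spell out Pilo. Each title marks its library as a biological replicate, with no word on whether it had its own culture, so the p-values measure the spread between these libraries only. A single clonal line stands in for microglia here, and no primary cell or animal tissue was measured.

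Glycolysis splits glucose into pyruvate, and lactate dehydrogenase can then turn pyruvate into lactate for export. When oxygen is plentiful, prolyl hydroxylases of the EGLN family mark the HIF1A protein for destruction. When oxygen is scarce HIF1A persists, pairs with ARNT, and binds short DNA elements containing ACGTG near many glycolytic genes and other targets. In macrophages and microglia, lipopolysaccharide is known to increase glycolysis and to raise HIF1A, which makes these genes a common readout of inflammatory activation.

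The promoter stretches of 5 members are shown because they are the 4 called members (defined below) with a matching RefSeq entry, and Ldha, a classical HIF1 target that was not called. Each is the 250 bases before an annotated start in RefSeq, build GRCm38.p6, read 5′ to 3′ on the strand of the gene: Slc2a1 at chr4:119108495-119108744 (plus strand), Hk3 at chr13:55021386-55021635 (minus strand), Pfkm at chr15:98092339-98092588 (plus strand, 1 of its 4 starts), Ldha at chr7:46845554-46845803 (plus strand, 1 of its 2 starts) and Ankrd37 at chr8:45999851-46000100 (minus strand). Capitals mark ACGTG on either strand, so CACGT is the same motif on the opposite strand and CACGTG, the E-box, holds it on both. For Pfkm and Ldha the start with the most matches is shown, and the window before the other Ldha start and those before 2 of the other Pfkm starts held none.
Slc2a1: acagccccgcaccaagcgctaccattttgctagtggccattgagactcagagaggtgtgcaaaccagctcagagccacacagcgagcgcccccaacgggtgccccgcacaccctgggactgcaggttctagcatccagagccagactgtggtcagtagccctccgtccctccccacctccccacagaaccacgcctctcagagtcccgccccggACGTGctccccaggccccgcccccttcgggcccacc
Hk3: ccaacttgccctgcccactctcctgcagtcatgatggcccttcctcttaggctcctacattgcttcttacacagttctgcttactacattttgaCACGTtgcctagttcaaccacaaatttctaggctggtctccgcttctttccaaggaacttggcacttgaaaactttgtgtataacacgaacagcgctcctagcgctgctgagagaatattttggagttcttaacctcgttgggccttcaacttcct
Pfkm: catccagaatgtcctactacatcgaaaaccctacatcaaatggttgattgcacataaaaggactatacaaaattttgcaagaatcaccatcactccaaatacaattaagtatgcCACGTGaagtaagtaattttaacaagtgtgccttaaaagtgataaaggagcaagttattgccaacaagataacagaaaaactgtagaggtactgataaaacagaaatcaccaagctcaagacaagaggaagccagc
Ldha: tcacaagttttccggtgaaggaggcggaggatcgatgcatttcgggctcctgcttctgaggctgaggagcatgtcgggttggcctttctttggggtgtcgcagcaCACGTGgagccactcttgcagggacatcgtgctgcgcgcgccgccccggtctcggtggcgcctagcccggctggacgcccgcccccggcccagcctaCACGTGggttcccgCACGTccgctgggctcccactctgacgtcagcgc
Ankrd37: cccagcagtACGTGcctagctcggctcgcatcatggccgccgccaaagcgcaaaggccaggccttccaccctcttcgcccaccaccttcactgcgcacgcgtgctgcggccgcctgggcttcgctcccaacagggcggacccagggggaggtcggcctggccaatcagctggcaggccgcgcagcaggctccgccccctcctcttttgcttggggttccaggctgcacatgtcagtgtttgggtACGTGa

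Of the 37 members, 33 had a RefSeq promoter entry, with Slc2a3, Bhlhe40, Ndrg1 and Bnip3l having none. ACGTG stood in the 250 bases before at least 1 start of 21 of these 33 genes (63.6%), against 18.5% of all 27025 genes in the same table. It was present for 8 of 17 glycolytic enzymes (47.1%) and for 8 of 9 HIF1 targets outside glycolysis (88.9%). Counted by window, ACGTG stood in 51% of the 49 member windows, against 16.6% of all 32851 windows. GCGTG, also searched for, stood before 22 of the 33 members (66.7%), against 30.9% of all genes. It was present for 10 of 17 enzymes (58.8%) and 7 of 9 targets (77.8%). The members' windows had a median GC content of 60.4%, against 52.4% over all windows, and its part in these differences was not tested. Among the matched members, ACGTG was present for 2 of 2 genes called higher in LPS than in Control, 2 of 2 called lower, and 17 of 27 not called. The members were chosen by name, known HIF1 targets among them, so their motif shares describe the chosen list and are no independent support. These matches are letters in a window and not measured binding sites.

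Before the comparisons, 4 libraries need naming because they stood apart from their groups in these genes. Control replicate 1 had the highest level of the 3 Control libraries in 29 of 35 members (82.9%), against 62.4% of all tested genes, and in 11 of 11 tested HIF1 targets outside glycolysis. LPS replicate 3 had the lowest level of the 3 LPS libraries in 33 of 35 members (94.3%), against 66.3% of all tested genes, and in 11 of 11 of the same targets. Control replicate 2 had the lowest level of the Control libraries in 30 of 35 members (85.7%), against 60.1% of all tested genes, and in 10 of the 11 targets. LPS replicate 1 had the highest level of the LPS libraries in 25 of 35 members (71.4%), against 40.6% of all tested genes, and the lowest in 0 of 35. The median target lay 0.29 above its group mean on the log2 scale in Control replicate 1 and 0.26 below it in LPS replicate 3, against 0.13 above and 0.15 below for all tested genes. The median target's deviation was 0.174 in LPS replicate 1 and -0.218 in Control replicate 2, against 0.0641 and -0.115 for all tested genes. Median-of-ratios size factors of the TPM values were 1.10 in Control replicate 1, 0.900 in Control replicate 2, 1.08 in LPS replicate 1 and 0.914 in LPS replicate 3, and lay between 0.900 and 1.11 over all 9 libraries. Of 10 microglia and macrophage markers, 9 reached 1 TPM in at least 1 library, and P2ry12 did not. Aif1 reached it in 3 libraries only, with 0.07 to 1.36 TPM, and Cx3cr1 (1.04 to 4.57 TPM) and Tmem119 (2.15 to 3.05 TPM) were low. Itgam had 42.5, 42.2 and 21.5 TPM in LPS and 14.2, 8.40 and 10.1 TPM in Control. Tyrobp was lower in LPS, at 878, 829 and 809 TPM against 1296, 1144 and 1135 TPM in Control. Of 28 markers of other cell types, Tubb3, Mbp and Cnp reached 1 TPM, while all astrocyte, endothelial and fibroblast markers stayed under 1 TPM. The neuronal marker Tubb3 had 383, 421 and 457 TPM in LPS+Pilo, 318, 306 and 403 TPM in LPS, and 164, 367 and 277 TPM in Control. The part of these library and marker differences in the results below was not tested.

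**Figure D1:**
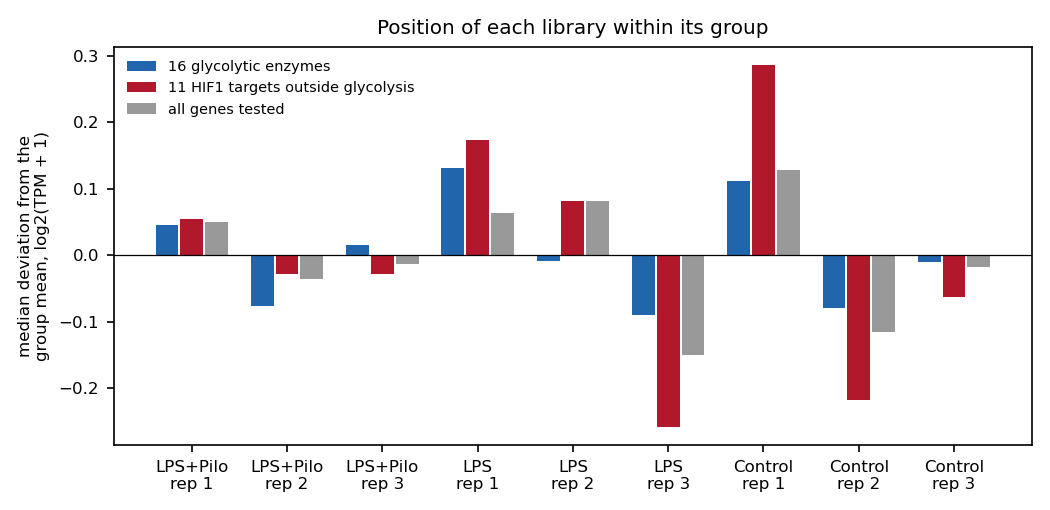
Median deviation of each library from its group's mean on the log2(TPM + 1) scale (bars), over 16 glycolytic enzymes, 11 HIF1 targets outside glycolysis and all tested genes, with the libraries along the horizontal axis from LPS+Pilo through LPS to Control. The bars of the HIF1 targets reach furthest, at 0.29 in Control replicate 1 and -0.26 in LPS replicate 3.

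The pathway was expressed over a range of more than 4 powers of 10 in TPM, a unit that divides by transcript length and so allows levels of different genes to be compared. The 17 enzymes together made up 3.09% to 3.65% of all TPM. Gapdh, which oxidizes glyceraldehyde 3-phosphate, had the highest level of the members, with 12420 TPM on average over the 9 libraries. Eno1, which forms phosphoenolpyruvate, followed with 5158 TPM, and its range over libraries did not overlap that of Gapdh or of the next gene. Pkm, Aldoa and Ldha, which encode pyruvate kinase, aldolase A and the muscle-type lactate dehydrogenase subunit, averaged 3774, 3425 and 3412 TPM, with ranges that overlapped between neighbours. Then came Tpi1 at 1444 TPM and Pgam1 at 1398 TPM, whose ranges overlapped, and Gpi1 at 707.6 TPM and Pgk1 at 681.0 TPM, whose ranges also overlapped. The lactate exporter gene Slc16a3 averaged 431.5 TPM, and the hexokinase gene Hk3 averaged 178.1 TPM. The HIF1 targets outside glycolysis were far lower, and together they summed to between 163.9 and 290.0 TPM per library. Slc2a3, a high-affinity glucose transporter gene, stood lowest of the tested members, between 0.31 and 1.16 TPM, and passed the filter through 3 libraries only. Several abundant enzyme genes, Gapdh among them, have many near-identical processed pseudogenes, so reads could be split between copies and their levels are uncertain to that extent.

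**Figure D2:**
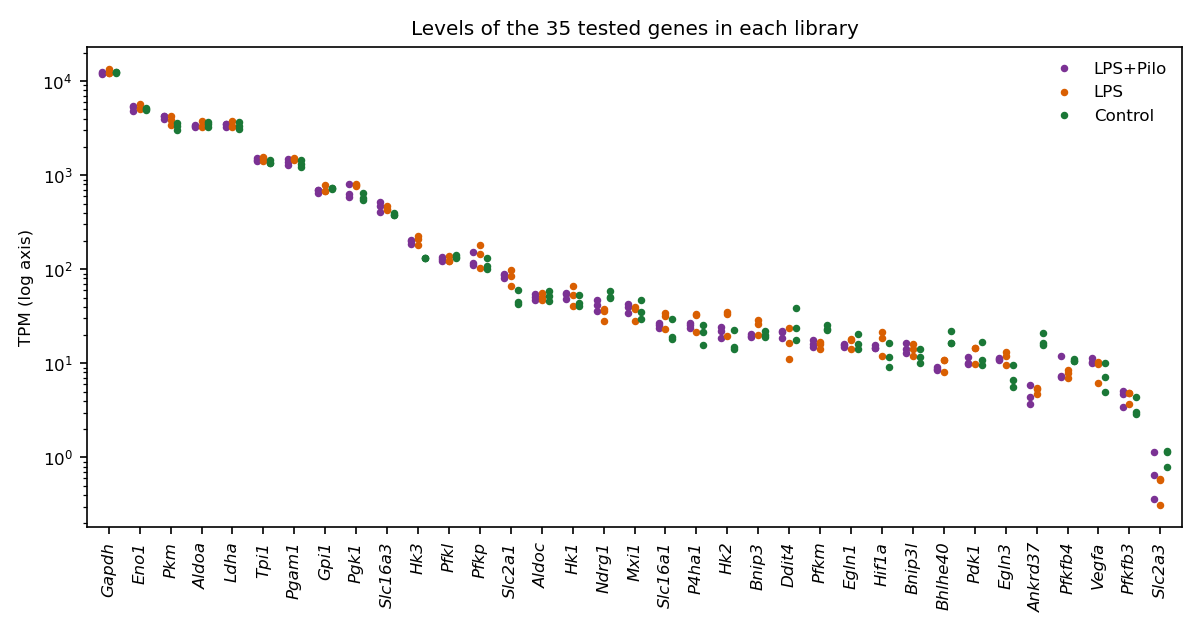
TPM of the 35 tested members in each of the 9 libraries (points) on a log axis, ordered by mean level, with LPS+Pilo, LPS and Control side by side in separate colours for each gene. Levels run from 0.31 TPM for Slc2a3 to 13520 TPM for Gapdh.

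The comparison of LPS with Control asks which of these genes differ when the inflammatory stimulus is present. Slc2a1 and Hk3, at the entry of the pathway, rose in LPS, while Pfkm, Ankrd37, Ndrg1 and Bhlhe40 fell, and no call was made for the remaining 29 tested members. A gene is called here when limma's moderated test gave an adjusted p under 0.05, with Benjamini-Hochberg adjustment over all 11260 tested genes and fold changes on the log2(TPM + 1) scale, which understates the change of low genes. The 6 called members of 35 compare with 7.76% of all tested genes called, of which 4.12% were higher and 3.64% lower. Groups did not overlap in 12 of 35 members, 6 higher and 6 lower, against 24.2% of all tested genes, of which 11.2% were higher and 13.1% lower. The unadjusted p was under 0.05 in 13 of 35 members, against 22.7% of all tested genes. The median log2 fold change of the members was 0.12, against 0.07 for all tested genes. Single libraries moved the number of members called, which became 9 when Control replicate 1 was left out, 4 when Control replicate 2 was, 3 when Control replicate 3 was and 4 when LPS replicate 2 was, and it was 4 with no filter and 3 with the libraries of the 2 groups alone. In bulk RNA, fewer expressing cells and less RNA per cell cannot be told apart.

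Glucose uptake itself was not measured, only the transcripts of its transporters. Of the 2 glucose transporter genes, the called one was Slc2a1, which encodes the widely expressed GLUT1. It had 99.0, 85.8 and 66.9 TPM in LPS, against 59.8, 42.8 and 45.0 TPM in Control. All 3 LPS libraries lay above all 3 Control libraries, with the lowest LPS value close to the highest Control value. The log2 fold change was 0.75 ± 0.16 (SE), a 1.70-fold ratio of group means, with an adjusted p of 0.0203 in limma. Leaving out a single library ended this call for Control replicate 2 (adjusted p = 0.07), Control replicate 3 (0.0872), LPS replicate 1 (0.0717) and LPS replicate 2 (0.077), as did using no filter (0.0568) or the libraries of the 2 groups alone (0.0712). Slc2a3 had 0.59, 0.57 and 0.31 TPM in LPS and 1.16, 0.80 and 1.13 TPM in Control. Its groups did not overlap, but these levels are near the filter and the adjusted p was 0.208.

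Hexokinase traps glucose in the cell by phosphorylating it, and Hk3, an isoform typical of myeloid cells, was the hexokinase gene with the highest level in these libraries. Hk3 had 227, 208 and 183 TPM in LPS, against 132, 132 and 133 TPM in Control. The Control libraries were almost equal, and every LPS library lay above them. Its log2 fold change was 0.63 ± 0.09 (SE) with an adjusted p of 0.00273 in limma, and the call held under all 17 alternatives. Hk2, the inducible hexokinase gene and a known HIF1 target, had 33.1, 35.2 and 19.6 TPM in LPS and 22.6, 14.1 and 15.02 TPM in Control. LPS replicate 3 fell below Control replicate 1, so the groups overlapped. The log2 fold change of Hk2 was 0.72 ± 0.24 (SE) with an adjusted p of 0.107. It passed the threshold in 5 of 17 alternatives. These left out LPS replicate 3 (adjusted p = 0.0196 in limma) or Control replicate 1 (0.0385), or kept all libraries. The latter used median-of-ratios scaling (0.0367), quantile normalization (0.0456) or a replicate block (0.0488). Hk1, the isoform found in most tissues, had a log2 fold change of 0.18 and an adjusted p of 0.549.

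Phosphofructokinase commits sugar to glycolysis, and of its 3 genes the muscle-type Pfkm fell in LPS. Pfkm had 16.1, 16.8 and 14.1 TPM in LPS, against 25.9, 22.6 and 23.0 TPM in Control. The groups were well apart, and the log2 fold change was -0.58 ± 0.12 (SE) with an adjusted p of 0.0153 in limma. That call ended when Control replicate 3 was left out (adjusted p = 0.0587) and with the libraries of the 2 groups alone (0.0502). Pfkm was a minor isoform, with 4.83% to 5.92% of summed phosphofructokinase TPM in LPS and 8.40% to 8.87% in Control. The liver-type Pfkl and platelet-type Pfkp, which make up the rest, had log2 fold changes of -0.10 (adjusted p = 0.478) and 0.30 (adjusted p = 0.419). Senp1 overlaps Pfkm in the genome, had 5.37 to 10.5 TPM over the libraries and a log2 fold change of 0.10 (adjusted p = 0.845). No source used here says whether reads were counted by strand.

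From aldolase to lactate dehydrogenase none of the tested member enzymes was called in LPS against Control. Pgk1, which makes the first ATP of the pathway, had 780, 799 and 767 TPM in LPS, against 647, 571 and 539 TPM in Control. Its groups did not overlap, and its log2 fold change was 0.42 ± 0.12 (SE) with an adjusted p of 0.0713. It passed the threshold in 4 of 17 alternatives. These left out Control replicate 1 (adjusted p = 0.0466 in limma) or LPS+Pilo replicate 1 (0.0255), used the libraries of the 2 groups alone (0.0486), or used a replicate block (0.0465). Gapdh, often used as a loading reference, had 13520, 12268 and 12167 TPM in LPS, against 12572, 12214 and 12454 TPM in Control. Its log2 fold change of 0.03 had a 95% interval of -0.17 to 0.22. Ldha had 3809, 3331 and 3222 TPM in LPS and 3697, 3116 and 3335 TPM in Control, and its interval was -0.19 to 0.25. For Gapdh and Ldha the intervals therefore stayed within a 1.5-fold difference in either direction. Pkm had 4294, 3874 and 3417 TPM in LPS and 3559, 3038 and 3353 TPM in Control, with a log2 fold change of 0.22 and an adjusted p of 0.253.

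Lactate leaves the cell through monocarboxylate transporters, of which Slc16a3 (MCT4) is the one typical of glycolytic cells. Slc16a3 had 473, 441 and 427 TPM in LPS, against 379, 376 and 401 TPM in Control. The groups did not overlap, yet the log2 fold change was only 0.21 and the adjusted p was 0.214. Slc16a1 (MCT1) had a log2 fold change of 0.40 and an adjusted p of 0.267. Of the 3 flux regulators none was called. Pfkfb3, which makes the sugar phosphate that activates phosphofructokinase, had 4.83, 4.86 and 3.66 TPM in LPS and 4.41, 2.89 and 3.03 TPM in Control, with an adjusted p of 0.383. Pfkfb4, its relative, had 7.95, 8.42 and 7.03 TPM in LPS and 11.2, 10.6 and 10.7 TPM in Control. Those groups did not overlap, with lower values in LPS, but its log2 fold change of -0.42 had an adjusted p of 0.195. Pdk1, which restrains pyruvate entry into mitochondria, had a log2 fold change of 0.08 and an adjusted p of 0.867.

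Hif1a mRNA had 18.7, 21.7 and 12.1 TPM in LPS, against 16.5, 9.25 and 11.6 TPM in Control. Both groups spread widely and overlapped, with LPS replicate 3 below Control replicate 1. The log2 fold change was 0.46 ± 0.23 (SE), with a 95% interval of -0.07 to 0.98 and an adjusted p of 0.282, so the interval held values from no difference to nearly a 2-fold increase. HIF1A is controlled largely at the protein level, which these libraries do not measure. Among the prolyl hydroxylases, Egln3, itself a HIF1 target, had 13.3, 11.98 and 9.70 TPM in LPS and 9.55, 5.60 and 6.68 TPM in Control. The lowest LPS value lay just above the highest Control value, and the log2 fold change was 0.63 ± 0.18 (SE) with an adjusted p of 0.0708. Egln3 passed the threshold in 4 of 17 alternatives. These used median-of-ratios scaling (adjusted p = 0.0156 in limma) or quantile normalization (0.0165), or left out LPS replicate 3 (0.0447) or Control replicate 1 (0.0153). Egln1, the main oxygen sensor of most cells, had a log2 fold change of -0.01 and an adjusted p of 0.969.

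Of the 11 tested HIF1 targets outside glycolysis, 3 fell in LPS and none rose, against 3.64% of all tested genes called lower and 4.12% called higher. Ankrd37, an ankyrin-repeat gene whose promoter is shown above, had 5.33, 5.44 and 4.72 TPM in LPS, against 21.0, 16.3 and 15.6 TPM in Control. The groups were far apart, and the log2 fold change of -1.59 ± 0.17 (SE) was the largest in size among the 35 tested members. Its adjusted p was 0.000578 in limma, and the call held under all 17 alternatives. Ufsp2, which overlaps Ankrd37 on the opposite strand, had 16.8, 22.1 and 17.7 TPM in LPS and 17.8, 12.7 and 16.2 TPM in Control, with a log2 fold change of 0.26 (adjusted p = 0.347). Without knowledge of strand use, reads of these neighbours cannot be told apart where they overlap.

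Bhlhe40, a transcriptional repressor linked to the circadian clock and to cytokine control, had 10.9, 10.7 and 8.14 TPM in LPS, against 22.1, 16.3 and 16.6 TPM in Control. The groups did not overlap, and the log2 fold change was -0.82 ± 0.15 (SE) with an adjusted p of 0.0118 in limma (0.0517 with the libraries of the 2 groups alone). Ndrg1, a stress-responsive gene, had 38.3, 35.9 and 28.1 TPM in LPS, against 58.7, 49.9 and 50.7 TPM in Control. Its log2 fold change was -0.63 ± 0.14 (SE) with an adjusted p of 0.0259. The Ndrg1 call ended when any 1 Control library was left out (adjusted p = 0.054, 0.052 and 0.0739 for replicates 1, 2 and 3), when LPS replicate 2 was (0.0622), with no filter (0.0594) and with the libraries of the 2 groups alone (0.0553). Vegfa, the angiogenic growth factor gene most often read as a hypoxia target, had 9.73, 10.2 and 6.25 TPM in LPS and 10.1, 5.01 and 7.09 TPM in Control. The Vegfa groups overlapped almost fully, with an adjusted p of 0.599. The mitophagy receptor genes Bnip3 and Bnip3l had log2 fold changes of 0.26 (adjusted p = 0.294) and 0.23 (adjusted p = 0.438). P4ha1, which encodes a collagen prolyl hydroxylase subunit, had a log2 fold change of 0.47 and an adjusted p of 0.197. Ddit4, an inhibitor of the growth kinase mTORC1, had a log2 fold change of -0.59 and an adjusted p of 0.284, with Control replicate 1 at 38.9 TPM far above the other Control libraries at 17.6 and 23.6 TPM.

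**Figure D3:**
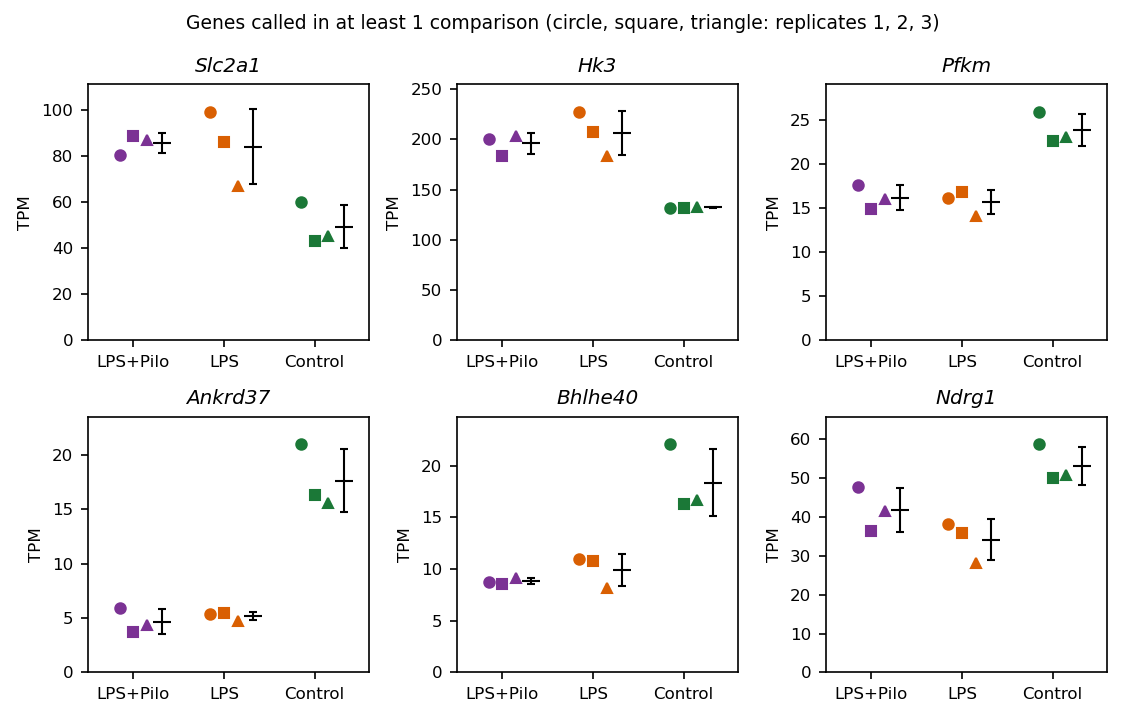
TPM by library of the 6 members called in at least 1 comparison, with LPS+Pilo, LPS and Control from left to right, a marker shape for each replicate number, and the group mean with its SD (n = 3) beside the points. Slc2a1 and Hk3 lie higher and Pfkm, Ankrd37, Ndrg1 and Bhlhe40 lower in LPS than in Control, with no overlap between those groups.

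Set beside each other, 2 of 16 tested enzymes were called in LPS against Control (1 higher and 1 lower) and 3 of 11 tested HIF1 targets outside glycolysis (all lower), against the 7.76% of all tested genes given above. The median log2 fold change was 0.09 over the enzymes, -0.01 over the targets and 0.07 over all tested genes. Over the alternatives these medians ran from 0.0168 to 0.164 for the enzymes and from -0.122 to 0.13 for the targets, so the sign of the targets' median was not fixed. The targets ranged more widely, with a median absolute log2 fold change of 0.47, against 0.15 for the enzymes and 0.20 for all tested genes. They also varied more between replicates, with a median SD within groups of 0.21 on the log2 scale, against 0.10 for the enzymes and 0.21 for all tested genes. The enzymes had much higher levels, and the part of level in these differences was not tested. Of the 11 targets, 5 had positive and 6 had negative log2 fold changes. Egln3 and P4ha1 had the largest positive ones, and no positive one passed the threshold.

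The comparison of LPS+Pilo with LPS asks what the addition of Pilo to the stimulus did to these genes. No member of 35 was called by limma, against 0.0444% of all tested genes (5 genes). The unadjusted p was under 0.05 in 1 of 35 members, against 6.76% of all tested genes, and no member had groups that did not overlap, against 12.2% of all tested genes. No member was called under any of the 17 alternatives. For all 35 members the 95% interval stayed within a 2-fold difference in either direction, and for 24 of them within 1.5-fold. The median log2 fold change was -0.04 over the members and -0.05 over all tested genes. The enzymes had a median of -0.04 (from -0.083 to 0.0222 over the alternatives), and the HIF1 targets outside glycolysis had a median of -0.05 (from -0.162 to 0.0468), so both changed sign with the setting.

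Slc2a1 had 80.4, 88.7 and 86.9 TPM in LPS+Pilo, within the LPS range of 66.9 to 99.0 TPM, and its log2 fold change was 0.04 with a 95% interval of -0.32 to 0.40. Hk3 had 201, 184 and 204 TPM in LPS+Pilo and 227, 208 and 183 TPM in LPS, with an interval of -0.27 to 0.13. Ankrd37 had 5.89, 3.67 and 4.38 TPM in LPS+Pilo and 5.33, 5.44 and 4.72 TPM in LPS, with an interval of -0.54 to 0.25. None of these 3 genes, each called in LPS against Control, separated the LPS+Pilo libraries from the LPS libraries. Hif1a had 15.6, 14.7 and 14.6 TPM in LPS+Pilo, inside the LPS range of 12.1 to 21.7 TPM, with an adjusted p of 0.923. Bnip3, the single member with an unadjusted p under 0.05, had 20.3, 19.4 and 18.8 TPM in LPS+Pilo, against 28.7, 25.97 and 19.8 TPM in LPS. Its log2 fold change was -0.32 with an adjusted p of 0.718 in limma, and the groups overlapped because LPS replicate 3 was low. Ndrg1 had 47.6, 36.3 and 41.5 TPM in LPS+Pilo, against 38.3, 35.9 and 28.1 TPM in LPS, with a log2 fold change of 0.29 and an adjusted p of 0.771. The widest interval among the members was that of Ddit4, at -0.38 to 0.99.

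**Figure D4:**
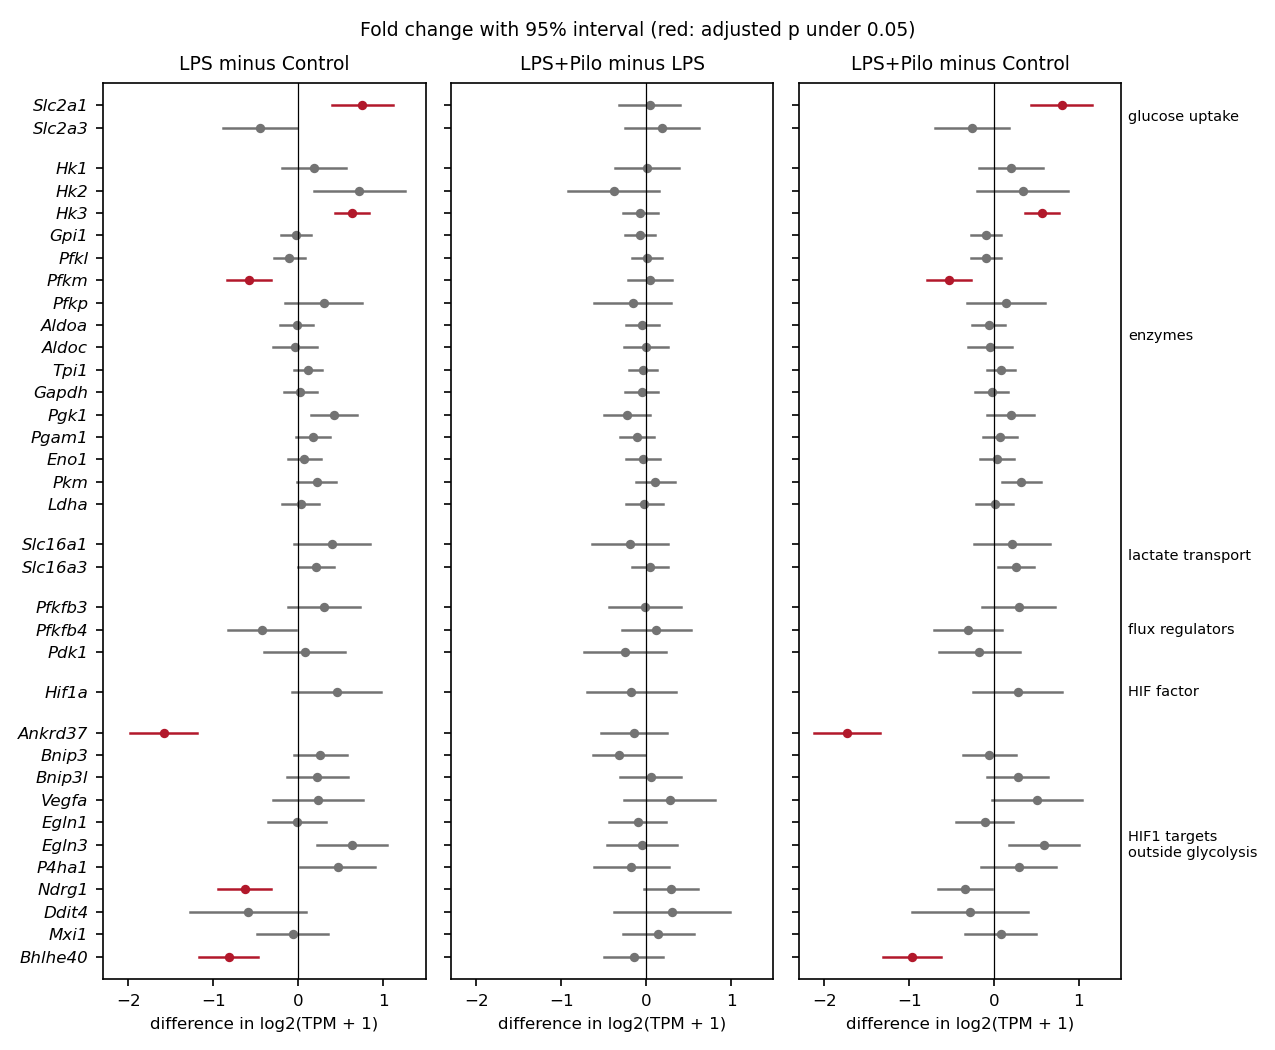
Log2 fold change of each tested member with its 95% interval in the 3 comparisons, 1 panel each, with called genes in red and a vertical line at 0. In LPS+Pilo minus LPS every interval but that of Bnip3 includes 0, and no gene is red.

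LPS+Pilo was also set against Control, a comparison that shares the LPS+Pilo libraries with the contrast above and the Control libraries with the first one, so its results are no independent support for either. Here 5 of 35 members were called, 2 higher and 3 lower, against 10.2% of all tested genes (4.85% higher and 5.3% lower). Groups did not overlap in 10 members, 5 higher and 5 lower, against 30.5% of all tested genes (14.9% higher and 15.6% lower). Leaving out Control replicate 3 or LPS+Pilo replicate 2 brought the number called to 3 each time, and quantile normalization brought it to 8. Slc2a1 and Hk3 rose, with log2 fold changes of 0.80 (adjusted p = 0.0126 in limma) and 0.56 (adjusted p = 0.00424). Slc2a1 lost its call when Control replicate 3 or LPS+Pilo replicate 2 was left out (adjusted p = 0.0545 and 0.0543). Pfkm, Ankrd37 and Bhlhe40 fell, with log2 fold changes of -0.53, -1.73 and -0.97 and adjusted p-values of 0.0174, 0.000258 and 0.00424. Pfkm lost its call when Control replicate 3, LPS+Pilo replicate 2 or LPS+Pilo replicate 3 was left out (adjusted p = 0.0592, 0.0763 and 0.0664). Ndrg1 was not called here, with a log2 fold change of -0.34 and an adjusted p of 0.175. Its LPS+Pilo libraries all lay below its Control libraries, and it passed the threshold in 2 of 17 alternatives. These were median-of-ratios scaling (adjusted p = 0.0363 in limma) and quantile normalization (0.0492). Whether its difference from Control was smaller in LPS+Pilo than in LPS is the LPS+Pilo minus LPS contrast, which had an adjusted p of 0.771. Pkm had 4213, 3984 and 4234 TPM in LPS+Pilo, against 3559, 3038 and 3353 TPM in Control, with no overlap, a log2 fold change of 0.32 and an adjusted p of 0.0829. It passed the threshold with quantile normalization (adjusted p = 0.0384 in limma). Egln3 had a log2 fold change of 0.58 (adjusted p = 0.0788). It passed with median-of-ratios scaling (0.0132), with quantile normalization (0.0104) and without Control replicate 1 (0.0163).

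Other genes of the same and adjoining pathways were read from further lists, also chosen with earlier results of these data known. Their counts are therefore descriptions and no independent support. Of 11 tested further genes related to glycolysis, 2 fell in LPS against Control and none rose, against 3.64% of all tested genes called lower and 4.12% called higher. Eno3, the muscle-type enolase gene, had 48.8, 49.4 and 57.4 TPM in LPS, against 84.5, 92.3 and 95.2 TPM in Control, with a log2 fold change of -0.80 ± 0.09 (SE) and an adjusted p of 0.000739. The groups were far apart, and Eno3 made up 0.847% to 1.11% of summed enolase TPM in LPS and 1.65% to 1.84% in Control. Slc2a8, a glucose transporter gene, had 3.53, 3.15 and 2.99 TPM in LPS, against 8.78, 6.92 and 8.24 TPM in Control, with a log2 fold change of -1.09 and an adjusted p of 0.0148. Leaving out Control replicate 3 or LPS replicate 2 ended its call (adjusted p = 0.0642 and 0.0528). Of 8 tested pentose phosphate genes, Pgls, which opens the lactone ring in the oxidative branch, was the one called, where 7.76% of all tested genes were. It had 504, 468 and 478 TPM in LPS, against 677, 652 and 692 TPM in Control, with a log2 fold change of -0.48 and an adjusted p of 0.011. The Pgls call likewise ended when either was left out (adjusted p = 0.0551 and 0.0528).

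No gene of pyruvate entry into mitochondria (10 tested) or of HIF control (12 tested) was called by limma in any of the 3 comparisons. At an unadjusted p under 0.05, pyruvate entry had 2 genes in LPS against Control, 0 in LPS+Pilo against LPS and 4 in LPS+Pilo against Control, and HIF control had 0, 0 and 1, against 22.7%, 6.76% and 24% of all tested genes in the same comparisons. The glycogen list had 8 tested genes, of which none was called in LPS against Control (3 at an unadjusted p under 0.05). Gyg, for the primer protein of glycogen synthesis, fell in LPS+Pilo against Control (log2 fold change -0.84, adjusted p = 0.00789), where 5.3% of all tested genes were called lower. Gyg was also lower in LPS than in Control without overlap (-0.55, adjusted p = 0.0591 in limma). Its LPS+Pilo minus LPS contrast was -0.28 with an adjusted p of 0.781. Of 21 further tested genes that respond to hypoxia, 7 rose and 2 fell in LPS against Control, where 4.12% of all tested genes were called higher and 3.64% lower, with Nos2, Ier3, Slc7a11 and Tfrc at log2 fold changes of 2.90, 2.46, 2.16 and 1.08. Nos2 passed the filter through its 6 treated libraries, with 12.9, 5.86 and 4.32 TPM in LPS and 0.11, 0.08 and 0.02 TPM in Control, and a gene that passes in this way had to differ. The size of its change rests on the pseudocount, with a log2 fold change of 5.40 at a pseudocount of 0.1 TPM, where Slc7a11 had 2.90. Slc7a11 reached 1 TPM in 7 libraries, with 11.4, 9.48 and 4.71 TPM in LPS. In Control it had 1.79, 0.66 and 0.78 TPM, so it too passed the filter only with its treated libraries. Nos2, Ier3 and Slc7a11, for inducible nitric oxide synthase, an immediate-early stress gene and the cystine transporter, are also known targets of inflammatory or oxidative stress signalling. Ero1l, Pdgfb and Hmox1 rose as well, with log2 fold changes of 0.98, 0.54 and 0.32 (adjusted p = 0.0266, 0.0315 and 0.0385 in limma). Selenbp1 and Plod1 fell, with log2 fold changes of -0.98 and -0.53. Which signal lay behind any of these changes was not tested. Tfrc, the transferrin receptor gene, had 42.1, 60.0 and 40.6 TPM in LPS, against 24.9, 19.3 and 21.0 TPM in Control, with no overlap between the groups. In LPS+Pilo against Control, 6 genes of that list rose and 2 fell, where 4.85% of all tested genes were called higher and 5.3% lower. None of these lists had a gene called in LPS+Pilo against LPS by limma, where 1 gene, of the further hypoxia list, had an unadjusted p under 0.05. That gene was Hmox1, with 176, 184 and 176 TPM in LPS+Pilo, 253, 219 and 221 TPM in LPS, and 190, 184 and 180 TPM in Control. Its LPS+Pilo and LPS libraries did not overlap, as in 12.2% of all tested genes. The log2 fold change was -0.37 with an adjusted p of 0.318 in limma.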

How the data were processed

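RNA extracted with TRIzol was made into TruSeq libraries, per the labels' protocols. The submitters' processing notes name fastp 0.19.5, STAR 2.7.1a, DESeq2 1.24.0 and the build GRCm39. The authors deposited 1 table of TPM (transcript levels scaled by transcript length and library total) for 55906 genes, rounded to 2 decimals. TPM keep no record of read depth, so the depth is unknown, and no source used here states the strand use or annotation. Symbols came from a GENCODE name table, and where a symbol had more than 1 identifier (Aldoa) the one that RefSeq links to that gene was used.

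The 11260 genes that reached 1 TPM in 3 or more of the 9 libraries were fitted with limma 3.58.1 (R 4.3.3) on log2(TPM + 1), with a variance trend, all 9 libraries and 6 residual degrees of freedom. Benjamini-Hochberg adjustment ran over all of these genes, with 0.05 as the threshold. The script was tested on simulated data. The 17 alternatives were a pseudocount of 0.1 TPM, no filter, a filter of 5 TPM, median-of-ratios scaling, quantile normalization, no variance trend, the 2 groups alone, a replicate block, and leaving out each library. Per-library values were given for called members and for a fixed set of key genes. For Hk2, Pfkfb3, Gapdh, Ldha, Vegfa and Egln3 the text gives TPM of the LPS and Control libraries only. Others are given where their values, once seen, stood out. Genes picked outside the members were those called with the largest changes in their list, at most 4 per list and comparison. Ero1l, Pdgfb, Hmox1 and Plod1 were named in addition, without their results under the alternatives. The members and lists were chosen with earlier results of these data known. Promoters are RefSeq's, 250 bases before each start.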

Additional observations from a re-analysis of the deposited data

How the results depend on the processing

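The medians of the enzymes and of the HIF1 targets outside glycolysis moved by less than the replicate spread under all 17 alternatives in each comparison. Some of these small medians changed sign, and none of the 26 calls counted below changed direction. For LPS minus Control, 874 genes were called, against 486 with the libraries of the 2 groups only and 1516 (614 higher, 902 lower) with quantile normalization, which turned the balance of 464 higher and 410 lower in the fit reported, and from 414 to 1020 when 1 library was left out (552, 414, 507 and 466 without Control replicates 2 and 3 and LPS replicates 1 and 2). Members called there numbered 3 with the 2 groups only and from 3 to 9 when 1 library was left out. For LPS+Pilo minus Control, quantile normalization called 1726 genes and 8 members, and leaving out 1 library called from 642 to 1286 genes (642, 735, 663 and 692 without Control replicate 3 and LPS+Pilo replicates 1, 2 and 3) and from 3 to 6 members. For LPS+Pilo minus LPS, 5 genes were called, against 2 with median-of-ratios scaling, 1 without a filter, 3 without the variance trend, 3 with the 2 groups only, 1 with quantile normalization, and from 0 to 6 when 1 library was left out (0 or 1 without any LPS or LPS+Pilo library). Members called stayed at 0. The causes were not tested. The replicate numbers were not shown to pair the libraries, since deviations of same-numbered LPS and Control libraries correlated at 0.165, -0.225 and 0.158, and 4 of 9 libraries matched their own number best. With a replicate block, 808, 1 and 1064 genes were called in LPS minus Control, LPS+Pilo minus LPS and LPS+Pilo minus Control, and 8, 0 and 5 members. Over 26 calls of members and of the genes picked from the other lists, an alternative kept the call 407 times. It was lost 35 times, in 9 of the 26. With 3 libraries a group and TPM alone, small changes and counting error could not be resolved.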

Other observations

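Within the EGLN prolyl hydroxylases, Egln3 made up 14.5%, 12.4% and 11.9% of their summed TPM in LPS+Pilo, 14.4%, 13.3% and 11.1% in LPS, and 9.70%, 6.03% and 7.29% in Control. Neither treated group overlapped Control, while the family's sum lay between 79.1 and 98.4 TPM over all 9 libraries. Summed hexokinase TPM were 279, 262 and 271 in LPS+Pilo, 326, 296 and 244 in LPS, and 208, 187 and 191 in Control, again without overlap between either treated group and Control. Hk3 held 70.2% to 75.2% of that sum in LPS+Pilo, 69.7% to 75.2% in LPS and 63.2% to 70.5% in Control, so its share overlapped between LPS and Control. These shares and sums were looked at after the values of the single genes had been seen, and they were not tested.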
